A study of Mus musculus with 1 sample.

Results

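The cytosolic ribosomal protein genes encode the proteins of the ribosome outside mitochondria, and their transcripts were described across the cell classes of the neonatal mouse cortex. Members were the rows of the UMI table whose symbol begins with Rpl or Rps followed by a number, with at most 1 letter and a further number after it, together with Rplp0, Rplp1, Rplp2 and Rpsa. This rule found 88 of the 51912 rows, 52 for the large subunit and 36 for the small subunit. Pseudogene rows with the suffix ps and the Rps6 kinase genes were outside the rule, which reads symbols alone and was set with earlier results of these data known.

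The data came from 1 library of the cerebral cortex of wild-type (WT) C57BL/6 mice at P0, the day of birth. The labels give the genotype as wild type and name no transgene or treatment. The tissue was digested to single cells and captured with the 10x Genomics Chromium system, in which transcripts are read near their 3′ end and counted once each by a unique molecular identifier (UMI). A SERPINA3 knock-in genotype and triplicates, which the series also mentions, were not analysed here. As there was 1 library, no test between samples was possible, and the ranges given in brackets after a value are 95% intervals that cover counting error only.

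Ribosomes translate mRNA into protein. The small subunit reads the message and the large subunit joins the amino acids, while the stalk of the large subunit, made of the acidic P proteins, recruits translation factors. Ribosomal protein mRNAs are among the most abundant of any cell, and their translation is known to follow growth signals through a run of pyrimidines (C or T) at the 5′ end of the mRNA, the TOP motif. Several members have a second copy in the genome that can take the place of the usual protein, and some of these copies are known for expression in testis or muscle.

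To show the sequences behind the comparison of usual and second copies, the 15 bases before and the 15 bases from the annotated start of transcription are printed for pairs and single members to which the results return. They were taken from RefSeq (GRCm38.p6) by symbol. Capitals mark a run of at least 6 bases that begins with C, holds only C and T, and starts within 5 bases of the annotated start. A run was taken at full length from its first C, so one that begins further upstream was not marked. A sequence without capitals held no such run there.
Rps27, chr3:90213634-90213663, minus strand: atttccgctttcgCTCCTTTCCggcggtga
Rps27l, chr9:66946071-66946100, plus strand: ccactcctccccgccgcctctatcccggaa
Rpl22, chr4:152324421-152324450, plus strand: cgctgcttctggaatgttccagctcccact
Rpl22l1, chr3:28805493-28805522, plus strand: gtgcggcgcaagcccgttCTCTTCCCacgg
Rpl7l1, chr17:46782642-46782671, minus strand: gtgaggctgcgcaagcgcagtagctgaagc
Rps24, chr14:24490663-24490692, plus strand: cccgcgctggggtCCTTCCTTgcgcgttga
Rpl38, chr11:114668565-114668594, plus strand: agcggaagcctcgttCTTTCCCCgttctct
Rps10, chr17:27635230-27635259, minus strand: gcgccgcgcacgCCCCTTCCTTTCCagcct
For Rps27l, Rpl22 and Rps24 the start furthest upstream is shown, since the table holds more than 1. The capitals were present in Rps27 and absent from Rps27l, and the reverse was seen for Rpl22 and Rpl22l1. The labels name another genome build (mm9) for the deposited counts, so the coordinates belong to the RefSeq sequences and not to the UMI table.

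Of the 88 members, 63 were found in the RefSeq promoter table, with 75 annotated starts. A pyrimidine run as defined above lay at 23 of these 75 starts (30.7%), against 9.10% of all 32851 starts in the table. In the window of 300 bases around the start, 250 before and 50 after, CCGGAAG on either strand (the core that ETS factors such as GABP bind) was found for 27 member starts (36.0%) and for 8.86% of all starts. GGGCGG (the core bound by SP1) was found for 45 (60.0%) and 35.7%, and AAGATGG (the core bound by YY1) for 12 (16.0%) and 6.34%. These matches are descriptions of letters and not of bound sites. Among those not found by symbol were Rps20, Rpl6l, Rpl32, Rpl17, Rps27a, Rps14, Rplp1, Rpl7, Rps12l1, Rpl8, Rps3a3, Rpl30, Rpl21, Rpl36, Rpl29, Rpl23a, Rps3a2, Rpl3, Rps29 and Rps4l.

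The library held 11062 barcodes and 90346034 UMIs, with 500 to 92061 UMIs per barcode. Barcodes with at least 1000 detected genes were kept (9018, median 8495 UMIs). Classes were gated by marker UMIs, and 4986 kept barcodes passed exactly 1 of the 13 gates used. Another 4015 passed none, 4 passed more than 1 and were left out, and 13 striatal-type barcodes were too few to use. No doublet caller was run. Gates allowed at most 2 UMIs of endothelial, microglial and mural genes, and every class name below means cells like that type by these markers.

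Markers that the gates did not use were summed as a check. The 5 dividing-cell genes (Cdk1, Ccnb1, Rrm2, Tyms, Hmgb2) reached 4103 CPM in dividing progenitors and 4211 CPM in dividing Olig-positive cells, against 34.5 CPM in layer VI neurons. The 5 radial glia genes (Fabp7, Vim, Sox2, Pax6, Mt3) reached 27166 CPM in radial glia or astrocytes and 7217 CPM in non-dividing Olig-positive cells. The 4 oligodendrocyte lineage genes (Sox10, Cspg4, Gpr17, Bcas1) summed to 596 CPM in non-dividing Olig-positive cells with none at 0, but to 80.2 CPM in dividing Olig-positive cells with 1 of the 4 at 0. The latter class is therefore called by its gate only. Markers of other cell types were present in several classes. The 6 interneuron genes, which summed to 1914 CPM in Lhx6 interneurons, reached 845 CPM in layer VI neurons, of which Npy gave 836 CPM, and 386 to 469 CPM in older upper-layer, layer IV and layer V neurons, also mostly Npy. In dividing Olig-positive cells they summed to 152 CPM (Dlx1 82.6 CPM), above the oligodendrocyte lineage genes. In Adarb2, Prox1 and Sp8 interneurons the radial glia genes summed to 1028 CPM, and in layer IV neurons the haemoglobin gene Hbb-bs reached 121 CPM. The part of these markers or their cells in the values below was not tested.

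Members took 9757921 UMIs in all, or 11.2% of the non-mitochondrial UMIs. In the kept barcodes the median share was 11.2% (quartiles 9.03 and 12.9), and 87 of the 88 members had at least 1 UMI. Summed over a class, the share was highest in non-dividing Olig-positive cells at 16.4% (175 cells, quartiles 12.3 and 19.8). Their gate asked for Olig1, Olig2 or Pdgfra, genes of the oligodendrocyte lineage, and 56 of the 175 cells had no UMI of Pdgfra. Eomes newborn neurons followed with 14.1% (126 cells, quartiles 12.4 and 16.3). Their gate asked for at least 3 UMIs of Eomes and at most 1 of the dividing genes. It did not separate intermediate progenitors outside division from their young neuronal progeny, and the class may hold both. Pax6 and Sox2 had 233 and 131 CPM there, against 16.7 and 5.02 CPM in young upper-layer neurons, and Tubb3 had 1093 against 2429 CPM. Dividing Olig-positive cells had 13.8% (74 cells, quartiles 11.6 and 15.1).

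The middle of the order lay close together. The share was 12.4% in Adarb2, Prox1 and Sp8 interneurons (143 cells), 12.0% in young upper-layer neurons that still expressed Igfbpl1 (2537 cells), 12.0% in dividing progenitors (65 cells) and 11.8% in Lhx6 interneurons (152 cells). Layer IV neurons had 11.5% (343 cells), older upper-layer neurons without Igfbpl1 UMIs 11.1% (179 cells) and layer V neurons 11.1% (142 cells). At the low end were radial glia or astrocytes that did not divide with 10.3% (200 cells, quartiles 8.28 and 11.9), layer VIb neurons with 9.84% (162 cells, quartiles 8.39 and 11.2) and layer VI neurons with 9.73% (688 cells, quartiles 8.15 and 10.9).

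**Figure D1:**
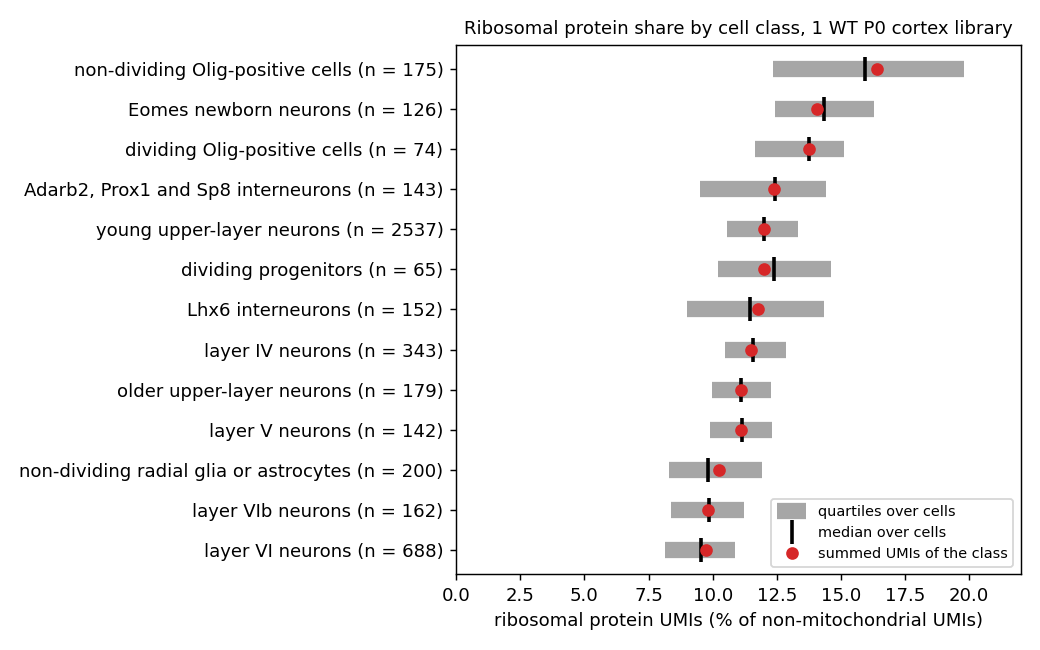
Share of non-mitochondrial UMIs (%, x axis) that came from the 88 ribosomal protein genes in 13 gated cell classes (y axis, n cells). Points are the summed UMIs of a class, ticks the median and grey bars the quartiles over cells; non-dividing Olig-positive cells lie at 16.4% and layer VI neurons at 9.73%, and the quartiles of neighbouring classes overlap.

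The classes were less separate than these sums. Between neighbours in this order, each median lay within the quartiles of the other class, except for layer V neurons beside radial glia or astrocytes. Within non-dividing Olig-positive cells the share per cell ran from 2.36% to 27.7%, with a standard deviation over cells of 5.01 percentage points against 0.493 from counting alone. In layer IV neurons these were 1.87 and 0.277 percentage points, the smallest spread among the 13 classes. Cells of 1 library are not replicates, so this spread says nothing of variation between mice.

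Small and large subunit genes kept a nearly fixed proportion. Small subunit members took between 46.4% (radial glia or astrocytes) and 47.5% (dividing progenitors) of all member UMIs in the 13 classes. Across the cells of a class, the small and large subunit shares of non-mitochondrial UMIs ranked alike, with Spearman coefficients from 0.915 (older upper-layer neurons, 179 cells) to 0.983 (Lhx6 interneurons, 152 cells). Both shares come from the same library and the same total per cell, so these are descriptions. The stalk genes Rplp0, Rplp1 and Rplp2 varied more, from 4.36% of member UMIs in Adarb2, Prox1 and Sp8 interneurons to 5.48% in dividing progenitors.

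Total UMIs per cell differed between classes, with medians from 4710 in Adarb2, Prox1 and Sp8 interneurons to 14673 in layer V neurons. Shares were therefore also set side by side among cells of 5000 to 10000 UMIs. In this band non-dividing Olig-positive cells had 16.8% (115 cells), Eomes newborn neurons 14.8% (100 cells) and dividing Olig-positive cells 13.4% (23 cells). Lhx6 interneurons had 12.9% (75 cells), young upper-layer neurons 12.3% (1605 cells) and dividing progenitors 12.2% (23 cells). Radial glia or astrocytes had 10.8% (156 cells), layer VI neurons 9.52% (324 cells) and layer VIb neurons 9.25% (30 cells). The 3 highest classes and the lowest 2 were thus the same as over all depths. Older upper-layer neurons (10.7%, 27 cells), layer V neurons (10.5%, 36 cells) and layer IV neurons (10.3%, 24 cells) lay below radial glia or astrocytes in this band, and above them over all depths.

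Within some classes the share also differed with depth. Young upper-layer neurons of 2000 to 5000 UMIs had 8.82% (304 cells), against 12.3% at 5000 to 10000 UMIs and 12.1% at 10000 to 20000 UMIs (534 cells). Radial glia or astrocytes went the other way, from 10.8% at 5000 to 10000 UMIs to 8.67% at 10000 to 20000 UMIs (28 cells). Over the cells of a class, the Spearman coefficient of share and total UMIs ran from -0.243 in layer IV neurons to 0.395 in Adarb2, Prox1 and Sp8 interneurons, and it was near 0 in others, such as layer V (0.022) and older upper-layer neurons (0.023). The mitochondrial share followed no single order with the member share. Over all barcodes, those with 2000 to 4000 UMIs had a median member share of 6.28% and a median mitochondrial share of 7.57%, and those with 4000 to 8000 UMIs had 12.0% and 3.31%. Barcodes of 500 to 1000 UMIs had 5.67% and 24.0%, those of 1000 to 2000 UMIs 4.93% and 15.7%, and those of 12000 to 20000 UMIs 11.3% and 3.14%. Radial glia or astrocytes had a low member share with the lowest median mitochondrial share of the 13 classes, 1.95%. The part of cell quality in the low shares was not tested.

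**Figure D2:**
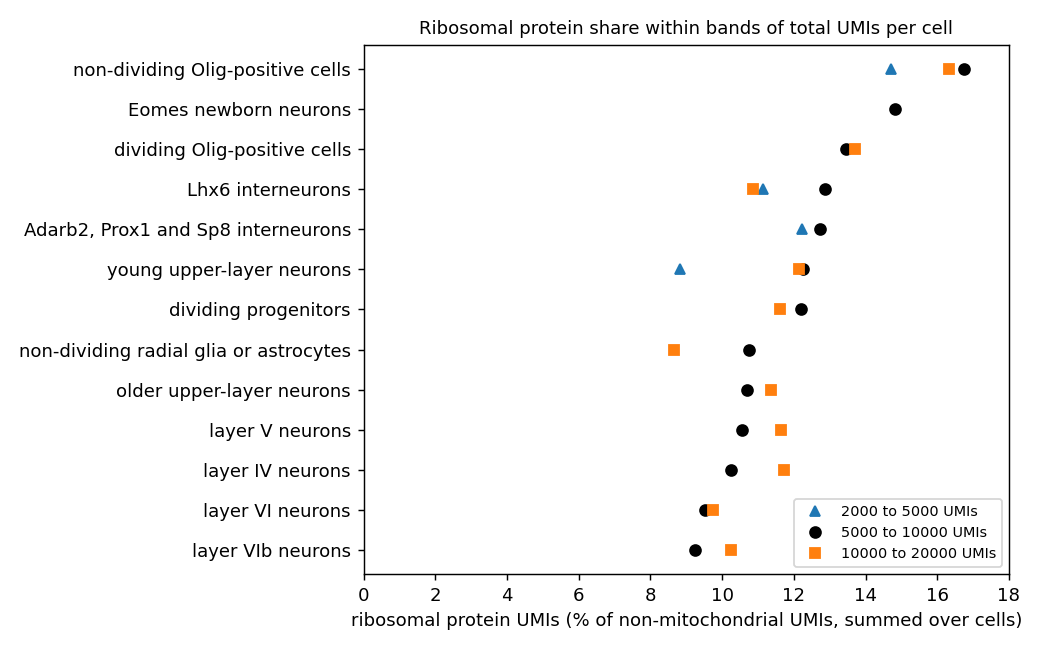
Ribosomal protein share (% of non-mitochondrial UMIs, summed over cells, x axis) of the 13 classes (y axis) within 3 bands of total UMIs per cell, for bands with at least 20 cells. Black points are cells of 5000 to 10000 UMIs; blue triangles show the lower share of young upper-layer neurons below 5000 UMIs (8.82%).

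Single members were compared in counts per 1000000 non-mitochondrial UMIs (CPM). Because a transcript is counted once near its 3′ end, CPM was not divided by gene length. Reads shared with near-identical copies and pseudogenes make the level of any member uncertain, since such reads may be discarded or assigned elsewhere. Over the gated cells, 81 members reached 10 CPM, 58 of them 1000 CPM. Among the 6 highest were Rps29 (2613 CPM), Rpl32 (2553 CPM), Rpl23 (2355 CPM) and Rps14 (2314 CPM). All 4 are core proteins of their subunits, and they were highest in non-dividing Olig-positive cells. There Rpl32 reached 4201 CPM, against 2066 CPM in layer VI neurons.

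The 81 members included 4 second copies (Rps27l, Rpl22l1, Rpl7l1 and Rps4l), and the other 77 are called usual members here. Second copies and their pairs were named by symbol, which does not show that the product of a copy can replace that of its partner. Whether their proteins take a place in the ribosome was not measured. Among these 77, 69 had their highest CPM in non-dividing Olig-positive cells. The lowest CPM of 49 was in layer VI or VIb neurons, and that of 27 in radial glia or astrocytes. The ratio of the highest to the lowest class was between 1.35 (Rpl15) and 2.28 (Rps9), with a median of 1.77. The remaining 7 members were under 10 CPM and are described with the second copies.

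To find which classes differed, 7 comparisons were made, and a member was counted when its CPM ratio was at least 1.5-fold in either direction. The same count over all genes of at least 10 CPM is the background. Comparisons against layer neurons share those cells, of which the young upper-layer neurons gave 52.2% of the UMIs, so they are not independent of each other.

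Of the 7 comparisons, the one with the largest difference set non-dividing Olig-positive cells against radial glia or astrocytes, both glial and both outside division. This comparison and that of layer VI with young upper-layer neurons were chosen after the shares of the classes had been seen. The member share was 1.60-fold higher (1.59 to 1.61) in the former. All 77 usual members were above 1, from 1.24-fold (Rps10) to 2.07-fold (Rps6). Of the 81 members, 57 were at least 1.5-fold higher against a background of 23.5% of 9076 genes, and 0 were at least 1.5-fold lower against 14.2%. Rps6, the small subunit protein that S6 kinases phosphorylate, had 632 against 305 CPM (1.84 to 2.33). Rps3a1 had 3058 against 1495 CPM, a ratio of 2.05 (1.94 to 2.16), and Rpl5, which binds 5S rRNA, had 1317 against 649 CPM, a ratio of 2.03 (1.87 to 2.20). These 3 were named after their values were seen, as the highest ratios of this comparison. The median over all genes tested was 1.08 (0.11 on the log2 scale), so the members' median of 1.60 is 1.48-fold relative to it.

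Of the second copies, 3 lay below all the usual members here. Rpl22l1 had 524 CPM in Olig-positive cells and 553 CPM in radial glia or astrocytes, a ratio of 0.947 (0.854 to 1.05). Rpl7l1 had 94.0 and 99.6 CPM, a ratio of 0.944 (0.735 to 1.21), and Rps27l had 382 and 322 CPM, a ratio of 1.19 (1.04 to 1.35). Rps4l, at 1.26 (0.825 to 1.93), lay within the range of the usual members. Rpl22l1 and Rpl7l1 were the only members below 1 in this comparison.

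Eomes newborn neurons had a 1.25-fold higher share (1.24 to 1.25) than layer neurons. Of the 81 members 77 were above 1, and 7 were at least 1.5-fold higher against a background of 17.8% of 9188 genes. No member was at least 1.5-fold lower, against 19.6%. Those higher included Rps27l (2.35-fold), Rpl22l1 (1.72), Rpl13a (1.60), Rps9 (1.56), Rpl32 (1.55) and Rps24 (1.52), of which Rpl13a and Rps9 were named after their values were seen. Rpl7l1 was just short of this limit at 1.48-fold, and past it with the members out of the denominator (1.53) or the required marker UMIs doubled (1.70). The radial glia genes summed to 723 CPM and the dividing-cell genes to 188 CPM in Eomes newborn neurons, against 99.4 and 44.1 CPM in layer neurons, and their part in these ratios was not tested. Rpsa, a small subunit protein also known as the laminin receptor, was below 1 with 2053 against 2245 CPM, a ratio of 0.915 (0.876 to 0.955).

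Dividing progenitors differed little from layer neurons in the share, at 1.06-fold (1.05 to 1.07). Here 59 of the 81 members were above 1, and 3 were at least 1.5-fold higher, against a background of 22.2% of 9189 genes. None was at least 1.5-fold lower, against 28.8%. The 3 were the second copies Rps27l, Rpl7l1 and Rpl22l1, and the 77 usual members ranged from 0.701 (Rpl38) to 1.36 (Rps24).

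Relative to the summed members, the 5 furthest above in dividing progenitors were Rps27l, Rpl7l1, Rpl22l1, Rps24 and Rpl8. Rps24, a small subunit protein with known alternative 3′ exons, had 2841 against 2086 CPM, a ratio of 1.36 (1.30 to 1.42). Rpl8 had 2203 against 1725 CPM, a ratio of 1.28 (1.21 to 1.34). The 5 furthest below were Rpl38 (1116 against 1592 CPM, ratio 0.701, 0.652 to 0.752), Rps7 (0.840), Rpl17 (0.862), Rpl35 (0.862) and Rpl37 (0.877). Rpl38 is known for a role in the translation of Hox mRNAs, and its printed start carries a pyrimidine run of 8 bases, as does that of Rps24 on the other side of the scale.

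Radial glia or astrocytes outside division had a 0.909-fold share (0.905 to 0.914) relative to layer neurons. In this comparison the median of all genes was itself 0.889 (-0.17 on the log2 scale), and the members' median of 0.897 lay beside it. Of the 81 members 16 were above 1. The same 3 second copies were at least 1.5-fold higher (background 22.1% of 9191 genes), with 2.61-fold for Rps27l, 2.47-fold for Rpl22l1 and 1.98-fold for Rpl7l1, and 0 were at least 1.5-fold lower (background 33.3%). Among usual members Rps10 was highest, with 1275 against 1029 CPM (1.24, 1.18 to 1.30), and Rps3 was lowest at 0.682 (0.651 to 0.714). Whether reads of Rps10 or of other usual members were shared with overlapping annotated genes was not tested.

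Among neurons, layer VI lay below the young upper layers. Its share was 0.811-fold (0.809 to 0.813) that of young upper-layer neurons, and 78 of 81 members were below 1. Only Rps4l was at least 1.5-fold higher (background 11.1% of 9192 genes), and only Rps9 at least 1.5-fold lower (background 9.5%), with 1144 against 1753 CPM or 0.652-fold (0.637 to 0.668). Rpl41, the smallest ribosomal protein, went against the rest with 1816 against 1541 CPM, a ratio of 1.18 (1.16 to 1.20), as did Rpl39 at 1.03 (1 to 1.06).

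Young upper-layer neurons had a 1.08-fold share (1.08 to 1.08) relative to older ones, with 74 of 81 members above 1. No member was at least 1.5-fold higher (background 9.06% of 9188 genes) and 1, Rps4l, at least 1.5-fold lower (background 9.26%). The ratio of Rps4l was 0.573 (0.462 to 0.716), but 0.794 among cells of 5000 to 15000 UMIs, where it was no longer past 1.5-fold. The stalk gene Rplp1 was below 1, with 1918 against 2307 CPM or 0.831-fold (0.807 to 0.856), whereas the stalk genes Rplp0 and Rplp2 were not. Cortical interneurons had a 1.06-fold share (1.06 to 1.07) relative to layer neurons, with 70 of 81 members above 1. There Rps4l alone was at least 1.5-fold higher (background 9.23% of 9192 genes), and 0 were at least 1.5-fold lower (background 11.8%). The order of the 2 shares differed with depth. Interneurons had 11.9% (118 cells) and layer neurons 8.77% (337 cells) at 2000 to 5000 UMIs. At 5000 to 10000 UMIs the values were 12.8% (130 cells) and 11.6% (2046 cells). At 10000 to 20000 UMIs interneurons were lower, with 11.1% (34 cells) against 11.3% (1383 cells).

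**Figure D3:**
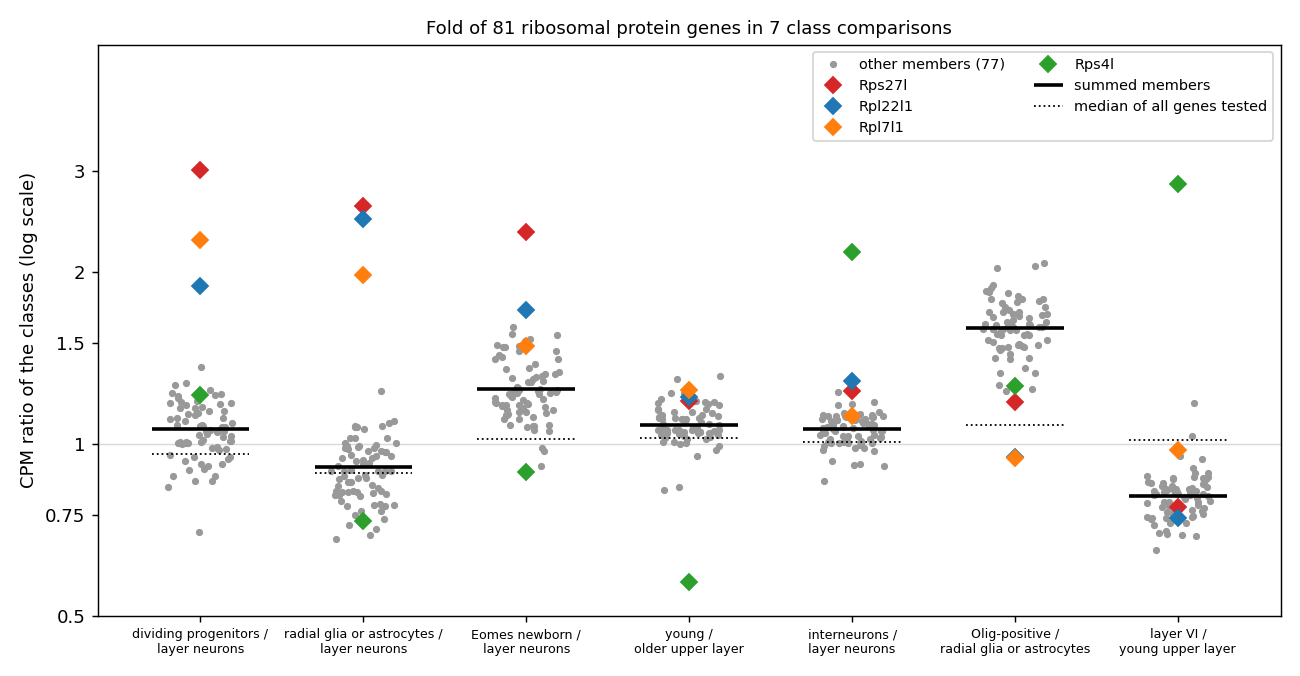
Ratio of CPM between 2 classes (y axis, log scale) for each of 81 ribosomal protein genes in 7 comparisons (x axis). Grey points are the 77 usual members, diamonds the second copies, solid lines the ratio of summed members and dotted lines the median of all genes tested; the usual members lie in a band, while Rps27l reaches 3.02 in dividing progenitors and Rps4l 2.85 in layer VI neurons.

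How far the usual members differed in proportion to each other was described by dividing each CPM ratio to layer neurons by that of the summed members. Layer neurons pool 6 of the 13 classes, so values of these 6 are held near 1 by construction. In the 7 classes outside the pool, 512 of 539 values lay from 0.8 to 1.25, with a range from 0.658 to 1.36. In the 6 layer classes 460 of 462 did. The ranks of the 77 genes by CPM were alike between all 78 pairs of classes, with Spearman coefficients from 0.904 to 0.994. These points share the library and the base composition of each transcript, so the coefficients are descriptions.

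The members with relative values furthest from 1 were few. Among those on the high side were Rps10 in radial glia or astrocytes (1.36), Rpl8 in dividing Olig-positive cells (1.29), Rpl13a in Eomes newborn neurons (1.29), Rps24 in dividing progenitors (1.28) and Rpl41 in layer V (1.28) and layer VI neurons (1.26). On the low side were Rps7 in dividing (0.658) and non-dividing Olig-positive cells (0.702), Rpl38 in dividing progenitors (0.660) and non-dividing Olig-positive cells (0.675), Rpl37 in dividing Olig-positive cells (0.730) and Rpsa in Eomes newborn neurons (0.734). Rpl38 and Rps7 were each below 0.8 relative to the summed members in all 4 progenitor and glial classes, including radial glia or astrocytes (0.761 and 0.780). In Eomes newborn neurons Rpl38 was also below 0.8 (0.779) and Rps7 at 0.862, and in the 6 layer classes Rpl38 was at 0.960 to 1.12 and Rps7 at 0.942 to 1.08.

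Of the stalk genes, Rplp0 had 1788 CPM in layer VI neurons and 3288 CPM in non-dividing Olig-positive cells, its lowest and highest classes. Rplp2 ranged from 1245 CPM in radial glia or astrocytes to 2065 CPM in non-dividing Olig-positive cells. Rplp1 was highest in non-dividing and then in dividing Olig-positive cells. It had 1518 CPM in layer VI neurons and 1584 CPM in Adarb2, Prox1 and Sp8 interneurons, against 2429 CPM in layer IV neurons, its highest layer class. Relative to the summed members it was 0.744 in those interneurons, the lowest value of any stalk gene. Rps27a, which is made as a fusion with ubiquitin, ranged from 1751 CPM in layer VIb neurons to 3188 CPM in non-dividing Olig-positive cells. Rpsa ranged from 1619 CPM in radial glia or astrocytes to 2880 CPM in non-dividing Olig-positive cells.

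The second copies lay outside the range of the usual members in some comparisons and inside it in others. Rps27l and Rpl22l1 were inside it in young over older upper-layer neurons (1.19 and 1.21) and in layer VI over young upper-layer neurons (0.774 and 0.740). Among cells of 5000 to 15000 UMIs, however, Rpl22l1 was at 1.40 in the former, above the highest usual member over all depths (1.31). Rps27l, a copy of Rps27 known as a target of p53, had 373 CPM in dividing progenitors, 461 CPM in dividing Olig-positive cells and 382 CPM in non-dividing ones. It had 322 CPM in radial glia or astrocytes and 290 CPM in Eomes newborn neurons, and then 96.7 to 140 CPM in the 6 layer classes. Dividing progenitors were 3.02-fold (2.65 to 3.42) above layer neurons. Rps27 itself had 1539 CPM in dividing progenitors and 1713 CPM in layer neurons.

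The share of Rps27l in the UMIs of both genes was 19.5% (17.4 to 21.7) in dividing progenitors and 20.0% (18.3 to 21.9) in dividing Olig-positive cells. It was 16.4% (15.1 to 17.8) in radial glia or astrocytes and 12.7% (11.7 to 13.8) in non-dividing Olig-positive cells. In Eomes newborn neurons it was 12.0% (10.7 to 13.3), and in the layer classes it lay from 5.75% to 7.03%. The interneuron classes differed, with 6.14% (5.13 to 7.28) in the Lhx6 class and 9.55% (8.14 to 11.1) in the Adarb2, Prox1 and Sp8 class, where radial glia and dividing-cell markers were also higher (1028 and 230 CPM, against 356 and 35.6 CPM in the Lhx6 class).

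Rpl22l1, a copy of Rpl22, was highest in radial glia or astrocytes at 553 CPM, and lowest in layer VI neurons at 182 CPM. Its share in the pair was 41.4% (39.3 to 43.6) in radial glia or astrocytes and near 30% in both Olig-positive classes and dividing progenitors (29.8% to 31.1%). In Eomes newborn neurons it was 27.0% (24.8 to 29.3), and in the layer classes 20.0% to 23.5%. Lhx6 interneurons had 31.1% (28.4 to 33.8) and Adarb2, Prox1 and Sp8 interneurons 19.4% (16.7 to 22.4), the reverse of the order seen for Rps27l. The usual gene Rpl22 had 781 CPM in radial glia or astrocytes and 793 CPM in layer neurons.

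Rpl7l1, paired with Rpl7 by symbol, had 115 CPM in dividing progenitors, 99.6 CPM in radial glia or astrocytes and 50.3 CPM in layer neurons. Its share in the pair was 11.0% (8.80 to 13.5), 10.2% (8.70 to 11.9) and 5.19% (4.97 to 5.41) in these classes. For this pair the share compares UMIs only and is not a measure of replacement of Rpl7. In dividing and non-dividing Olig-positive cells it had 86.2 and 94.0 CPM. Like Rps27l and Rpl22l1 it was above layer neurons in all 4 progenitor and glial classes, but the order of these classes differed between the 3 genes. Rpl22l1 overlaps the antisense gene Gm33051 and Rpl7l1 lies inside the lincRNA gene Gm26904 on the opposite strand (GENCODE M21), and both of these had at most 1.45 CPM in any class.

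Rps4l, a copy of the X-linked Rps4x, had another pattern. Lhx6 interneurons had 104 CPM, layer VI neurons 75.2 CPM, layer VIb neurons 71.9 CPM and Adarb2, Prox1 and Sp8 interneurons 66.9 CPM. Layer V neurons had 55.9 CPM, dividing progenitors 50.8 CPM, older upper-layer neurons 46.0 CPM, layer IV neurons 34.2 CPM and young upper-layer neurons 26.4 CPM. Non-dividing Olig-positive cells had 38.6 CPM, Eomes newborn neurons 37.3 CPM, radial glia or astrocytes 30.5 CPM and dividing Olig-positive cells 21.6 CPM, the lowest of the 13 classes. Layer VI neurons were 2.85-fold (2.53 to 3.21) above young upper-layer neurons, and interneurons 2.16-fold (1.83 to 2.54) above layer neurons. Rps4x had 1734 CPM in layer VI and 2028 CPM in young upper-layer neurons.

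Rps4l lies inside Tmtc1 on the opposite strand (GENCODE M21). Tmtc1 had 5.35 CPM in Lhx6 interneurons and 10.4 CPM in layer VI neurons, where Rps4l was high, and 26.0 CPM in young upper-layer neurons and 32.2 CPM in layer IV neurons, where it was lower. In the 4 progenitor and glial classes and in Eomes newborn neurons Tmtc1 had 0 to 2.87 CPM, so that both genes were low in some of these classes. The highest count of Rps4l in a cell was 9 UMIs, and no cell gave more than 1.60% of its UMIs in layer VI neurons or 6.84% in Lhx6 interneurons.

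**Figure D4:**
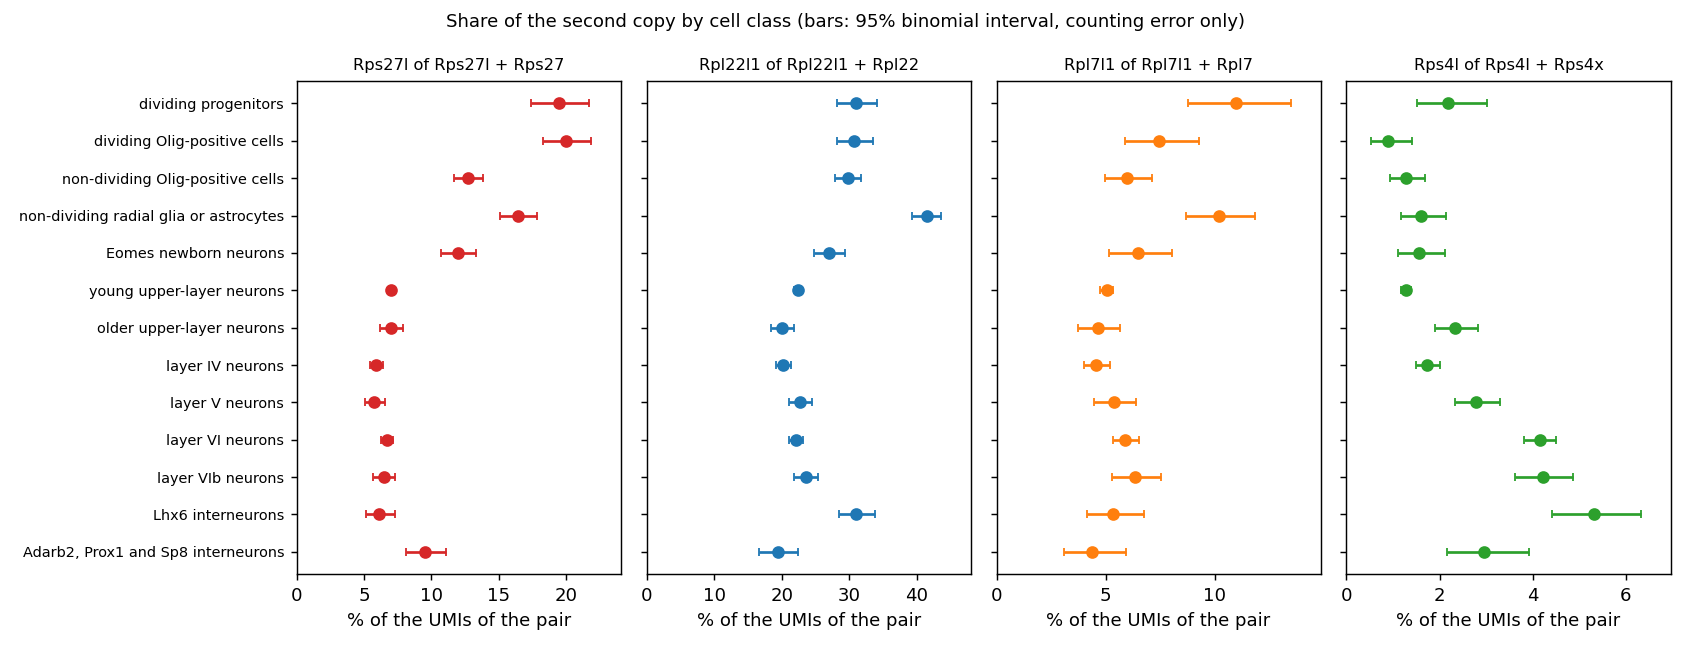
Share of the second copy in the UMIs of a pair (%, x axes, each with its own scale) in 13 cell classes (y axis) for Rps27l, Rpl22l1, Rpl7l1 and Rps4l. Bars are 95% binomial intervals for counting error; Rps27l is at 19.5% in dividing progenitors and 5.75% to 7.03% in layer neurons, and Rps4l is highest in Lhx6 interneurons at 5.31%.

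The 7 members under 10 CPM were Rpl6l, Rps3a2, Rps3a3, Rps12l1, Rpl39l, Rpl3l and Rpl10l. Over the gated cells Rpl6l had 3.73 CPM, Rps3a2 1.82 CPM and Rps3a3 0.730 CPM. Rpl3l, whose product is known from muscle, had 2 UMIs in all 11062 barcodes, Rps12l1 had 7 and Rpl39l, known from testis, had 8. Rpl10l, a testis copy of the X-linked Rpl10, had 0 UMIs, which by the limit of 3 counts in 11062 barcodes allows a UMI in up to 0.0271% of them. Their usual partners Rpl3, Rpl39 and Rpl10 had 1429.5, 899 and 1136 CPM.

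Other genes of the ribosome and of translation were described from lists by their counts past 1.5-fold and their median. Of the cytosolic ribosome genes outside the rule, 4 were measured, among them Fau, Rack1 and Rpl36al. In non-dividing Olig-positive cells over radial glia or astrocytes all 4 were above 1, and 2 of them, among these Rack1 (1.86-fold), were at least 1.5-fold higher (background 23.5%). In layer VI over young upper-layer neurons all 4 were below 1, with a median of 0.838.

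Ribosome assembly and rRNA synthesis genes were mostly lower in radial glia or astrocytes. In radial glia or astrocytes over layer neurons their median was 0.554, with 1 of 23 at least 1.5-fold higher and 14 lower (background 22.1% and 33.3%), where the members' median was 0.897 with 3 higher and 0 lower. Nop56 and Fbl, of the snoRNP that methylates rRNA, were at 0.297 and 0.526, and the nucleolar genes Ncl and Npm1 at 0.566 and 0.822. In non-dividing Olig-positive cells over radial glia or astrocytes 11 of 23 were higher and 0 lower (background 23.5% and 14.2%), with a median of 1.49 against 1.60 for the members, and Fbl was at 2.09. In Eomes newborn neurons, where members had a median of 1.23, the assembly genes had a median of 0.862 with 0 of 23 higher and 4 lower (background 17.8% and 19.6%).

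Elongation factors had medians of 0.692 in radial glia or astrocytes over layer neurons (1 of 9 higher, 3 lower, background 22.1% and 33.3%) and 1.54 in Olig-positive cells over radial glia or astrocytes (5 higher, 0 lower, background 23.5% and 14.2%). Eef1a1, which brings aminoacyl-tRNA to the ribosome, had 5821 CPM in Olig-positive cells and 3259.7 CPM in radial glia or astrocytes, and Eef1b2, its exchange factor, had 1135 and 461 CPM. Of 28 initiation factors 3 were higher and 0 lower in the latter comparison, with a median of 1.13. Mitochondrial ribosomal proteins had a median of 1.11 there, with 8 of 77 higher and 4 lower, against the same background. In dividing progenitors over layer neurons the mitochondrial ribosomal proteins had a median of 1.12 (14 of 77 higher, 6 lower, background 22.2% and 28.8%), and in layer VI over young upper-layer neurons it was 0.998 (1 higher, 1 lower, background 11.1% and 9.5%), against 0.814 for the cytosolic members.

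**Figure D5:**
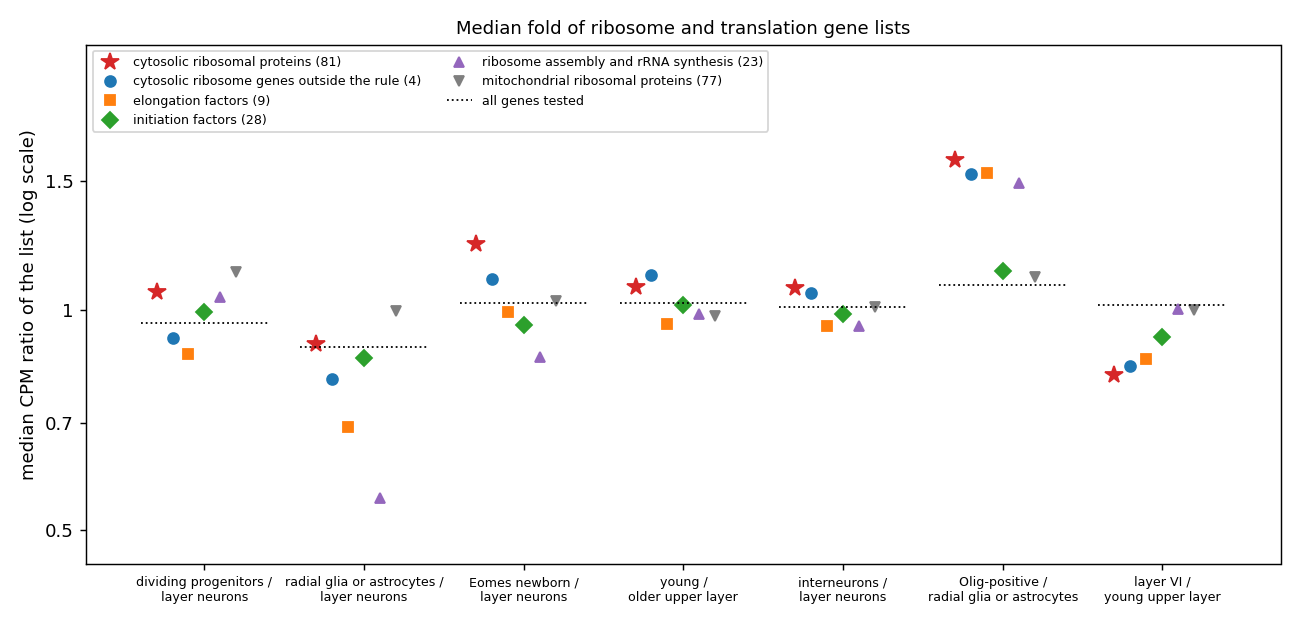
Median CPM ratio (y axis, log scale) of the cytosolic ribosomal protein genes and of 5 further lists in 7 class comparisons (x axis), with the number of genes tested in each list. Dotted lines are the median of all genes tested; in Olig-positive cells over radial glia or astrocytes the members (1.60), elongation factors (1.54) and assembly genes (1.49) lie above the initiation factors (1.13) and mitochondrial ribosomal proteins (1.11).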

How the data were processed

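Droplet single-cell RNA sequencing of 1 WT P0 cortex library was used. The authors deposited raw UMI counts for each gene and barcode, not normalized, and a cell table whose totals and gene numbers equalled the sums of the UMI table in all 11062 barcodes. Per the methods, a sequencing company aligned and counted the reads with Cell Ranger. The submitters' processing notes name STAR, Cell Ranger 2, Seurat and the build mm9 without roles. How multi-mapped reads and strand were handled, and how barcodes were called, are not given in the sources used here. Genes are given by symbol.

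Barcodes with at least 1000 genes were gated by marker UMIs, with thresholds set from class sizes and marker UMIs and not from ribosomal UMIs. The members and lists were chosen with earlier results of these data known. UMIs were summed per class, and shares and CPM (per 1000000) used non-mitochondrial UMIs as denominator. Intervals were exact: Clopper-Pearson for shares, pairs and ratios, and Poisson for CPM. They cover counting error only. Folds were computed for all genes of at least 10 CPM over the gated cells, with a floor of 3 counts per class for a class at 0, and called at 1.5-fold. A transcript share is relative, so fewer transcripts of other genes and more of the members cannot be told apart.

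Named genes were the 6 of highest CPM, the 5 furthest above and below the summed members in dividing progenitors over layer neurons, all second copies with a partner, the stalk genes, Rpsa, Rps27a and members without a UMI. Others were chosen after their values were seen. Some members and listed genes stay in all counts and sums but are not reported here by name. The ratio script was tested on counts drawn with known folds. Python 3.11.15, NumPy 2.4.6, SciPy 1.17.1 and pandas 2.3.3 were used. Alternatives changed the denominator, the gene minimum, the depth window, the gate thresholds and the summary over cells.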

Additional observations from a re-analysis of the deposited data

Results flagged for a closer look

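A signal was seen outside the measurement of members. Rows of ribosomal protein pseudogenes, which the rule leaves out, held 38276 UMIs in 204 of 276 rows, or 0.392% of the member UMIs. In 2044 barcodes under 1000 detected genes, which no comparison used, members were present at a median of 5.35% of non-mitochondrial UMIs (quartiles 4.22 and 7.03), against 11.2% in kept barcodes. Their median total was 935 UMIs and their median mitochondrial share 22.9%, against 3.28% in kept barcodes.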

How the results depend on the processing

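The depth bands, in which interneurons fell below layer neurons at 10000 to 20000 UMIs, were not among the alternatives. No ratio of member shares changed direction under any of the 8 alternatives tried for each of the 7 comparisons. The intervals that decide a shift cover counting error alone and are narrow. Values beyond that interval were as follows, and the cause of each shift was not tested unless the alternative builds it in. With mitochondrial UMIs in the denominator, dividing progenitors over layer neurons gave 1.07, radial glia or astrocytes over layer neurons 0.920, Olig-positive cells over radial glia or astrocytes 1.59 and layer VI over young upper-layer neurons 0.815. With the members taken out of the denominator, which widens every ratio by construction, the values were 1.07 and 0.899 for the former pair, 1.29 for Eomes newborn over layer neurons, 1.09 for young over older upper-layer neurons, 1.07 for interneurons over layer neurons, 1.72 for Olig-positive cells and 0.791 for layer VI. Without Malat1 they were 0.919 for radial glia or astrocytes, 1.07 for interneurons and 0.818 for layer VI. With at least 2000 genes per cell they were 1.05 for dividing progenitors, 1.08 for interneurons and 0.807 for layer VI. Among cells of 5000 to 15000 UMIs they were 1.05 for dividing progenitors, 0.895 for radial glia or astrocytes, 1.28 for newborn, 1.06 for young upper-layer neurons, 1.08 for interneurons, 1.61 for Olig-positive cells and 0.780 for layer VI. With the required marker UMIs doubled they were 1.05, 0.883, 1.29, 1.06, 1.03, 1.68 and 0.792 in the same order. By the median over cells they were 1.08 for dividing progenitors, 0.856 for radial glia or astrocytes, 1.05 for interneurons, 1.62 for Olig-positive cells and 0.795 for layer VI. The count of 3 members at least 1.5-fold higher in dividing progenitors was 4 without the filter, 3 after centring on all genes, 2 at 2-fold and 3 in the depth window. Among single second copies, the depth window gave Rpl22l1 1.90 in newborn, 1.40 in young upper-layer and 0.674 in layer VI neurons, Rps27l 0.696 in layer VI neurons, and Rps4l 0.794 in young upper-layer and 3.24 in layer VI neurons. Doubled marker UMIs gave Rps27l 1.09 in interneurons and 0.714 in layer VI neurons, and Rpl22l1 1.66 in dividing progenitors. The limit of a mitochondrial share under 10%, the ratios of Olig-positive cells and of layer VI, and the alternatives for single second copies were chosen after the data had been seen. No paired analysis was possible because a single library was given, so that no library could be left out either.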

Other observations

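Within the Olig-positive gate, the member share was 16.7% (16.6 to 16.8, 110 cells) in cells with at least 2 UMIs of Pdgfra, the receptor that marks oligodendrocyte precursors, and 15.4% (15.3 to 15.5, 56 cells) in cells without a Pdgfra UMI. Quartiles over cells were 12.3 to 20.5 and 12.4 to 18.2, so both groups overlapped. The other 9 cells, with 1 UMI of Pdgfra, had 20.2%. Among upper-layer neurons the share did not follow Igfbpl1 in 1 direction. It was 11.1% without Igfbpl1 UMIs (179 cells), 12.1% at up to 5 UMIs per 10000 (652 cells), 12.4% above 5 and up to 15 (976 cells) and 11.5% above 15 (1239 cells). The last group also had the lowest median total, 6528 UMIs, and among cells of 5000 to 15000 UMIs its median was 11.9% (950 cells). These are descriptions of 1 library with no test, and the groups were made after earlier values had been seen.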
